A study of Drosophila melanogaster with 2 samples.

Results

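Transfer RNA (tRNA) genes were taken as all genes whose symbol starts with tRNA: on 6 chromosome arms of Drosophila melanogaster (X, 4, 2L, 3L, 2R and 3R). There were 295 of them among 18164 annotated genes, 290 annotated as tRNA and 5 as tRNA pseudogenes, with none on arm 4. For each gene, peaks of chromatin binding were read within 250 bp of the gene start. Of the 295 genes, 288 started over 250 bp from every transcription start site (TSS) of a protein-coding gene, and the other 7 were set apart. The binding data came from chromatin immunoprecipitation with sequencing (ChIP-seq) of CG17829, the fly gene named Hinfp, whose human homologue is known as an activator of histone H4 genes. The embryos were 0 to 24 hours old, of both sexes pooled, and carried CG17829 with green fluorescent protein (GFP) at its C terminus, and an antibody against GFP pulled the fusion down. There was 1 group with 2 biological replicates, numbered 4 and 2, both from 1 transgenic line, and no second condition. Whole embryos mix all tissues and ages in this range, the labels do not say what drives the fusion, and binding by the untagged protein was not measured.

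The deposited data were 4 peak lists. Each replicate had a list of 30000 peaks, the pooled list from both replicates also held 30000, and a list of 7915 peaks had been selected by irreproducible discovery rate (IDR), which scores the repeatability of peak ranks across replicates. The IDR peaks kept their pooled ranks, so the pooled list adds the weaker peaks. A peak's signal is the authors' own value on a scale that is not stated, and it was used only within a list, where rank 1 is the strongest peak. Read depth is unknown.

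Transfer RNAs carry amino acids to the ribosome, and their genes are transcribed by RNA polymerase III. The promoter lies inside the gene, in an A box and a B box that the factor TFIIIC binds. TFIIIC in turn places TFIIIB, which contains Brf and Bdp1, just upstream of the gene, and TFIIIB recruits the polymerase. In flies many tRNA genes are near-identical copies that lie in clusters.

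The genes below are shown because they have the strongest IDR peaks among tRNA genes whose sequence could be printed. Each is given on its transcribed strand in the RefSeq sequence of Release 6 (dm6 coordinates). Capitals mark the first match to TNGNNNAG, letters of the A box, in the 5′ part of the gene and the last match to GGTTCNA, letters of the B box, in the 3′ part. The genes lie at chr3R:8669081-8669174 (minus strand, tyrosine), chrX:3427452-3427523 (minus, glutamine), chr3R:24112964-24113047 (plus, leucine), chr3R:17619961-17620032 (plus, proline), chr3R:17620144-17620216 (minus, alanine) and chr2L:8541761-8541832 (plus, aspartate).
tRNA:Tyr-GTA-1-8: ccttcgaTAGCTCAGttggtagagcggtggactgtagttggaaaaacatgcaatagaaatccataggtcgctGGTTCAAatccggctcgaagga
tRNA:Gln-TTG-2-1: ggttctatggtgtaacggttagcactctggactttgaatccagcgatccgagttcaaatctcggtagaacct
tRNA:Leu-TAA-2-1: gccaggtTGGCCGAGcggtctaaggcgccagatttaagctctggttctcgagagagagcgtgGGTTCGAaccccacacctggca
tRNA:Pro-TGG-1-2: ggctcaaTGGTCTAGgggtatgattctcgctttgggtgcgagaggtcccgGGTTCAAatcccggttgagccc
tRNA:Ala-AGC-2-3: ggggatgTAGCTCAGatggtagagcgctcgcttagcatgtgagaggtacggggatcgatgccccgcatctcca
tRNA:Asp-GTC-1-5: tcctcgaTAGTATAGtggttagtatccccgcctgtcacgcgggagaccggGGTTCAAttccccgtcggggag
The peak summits of the tyrosine and glutamine genes lie outside the gene, on its upstream side. The 101 bp centred on each summit, on the plus strand, are at chr3R:8669331-8669431 and chrX:3427702-3427802. They are all in lower case, since neither holds the narrower box letters or any of the other motifs described further on.
Summit of tRNA:Tyr-GTA-1-8: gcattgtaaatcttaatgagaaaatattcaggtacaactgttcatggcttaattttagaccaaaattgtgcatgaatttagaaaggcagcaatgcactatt
Summit of tRNA:Gln-TTG-2-1: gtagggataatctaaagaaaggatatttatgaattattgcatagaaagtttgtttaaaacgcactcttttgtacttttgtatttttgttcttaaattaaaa

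An IDR summit lay within 250 bp of the start of 39 of the 295 tRNA genes, or 13.2% (exact 95% interval 9.57 to 17.6%, counting error only), against 23.9% of all genes. The share was 13.2% (38 of 288) for tRNA genes clear of protein-coding TSSs and 1 of 7 for those set apart. Protein-coding genes had an IDR summit in 29.2% of cases, small nucleolar RNA (snoRNA) genes in 5.58%, microRNA genes in 2.69% and the remaining noncoding RNA genes in 6.03%. Bases within 250 bp of an IDR summit made up 2.87% of the 6 arms. The tRNA genes stood below protein-coding genes and above the other noncoding classes in this list. The interval of the tRNA genes starts only just above that of snoRNA genes (3.15 to 9.03%), and since tRNA genes share peaks, the order of these 2 classes is not settled by it.

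In the pooled list the order was another. A pooled summit lay at 147 tRNA genes, 49.8% (44.0 to 55.7%), against 39.5% of all genes. Protein-coding genes stood at 45.8% (45.0 to 46.6%), within the interval of the tRNA genes, while snoRNA genes stood at 19.0% and microRNA genes at 12.3%. The share of bases within 250 bp of a pooled summit was 10.1%. Clear of protein-coding TSSs, 144 of 288 tRNA genes, 50%, had a pooled summit, against 17.5% of snoRNA genes and 11.9% of microRNA genes equally clear. Of the genes with a pooled summit, 26.5% of tRNA genes also had an IDR summit, against 63.8% of protein-coding genes and 60.3% of all genes. The other noncoding classes were like tRNA genes here, with 29.4% for snoRNA, 21.9% for microRNA and 34.5% for the remaining noncoding RNA genes. The median rank of the pooled summit was 12038 at tRNA genes and 6226.5 at all genes. It was 15429 at snoRNA genes, 12242.5 at microRNA genes and 11937 at the remaining noncoding RNA genes. Pooled peaks at tRNA genes thus ranked lower than those at genes in general, as did those of the other noncoding classes. Within the list itself they were not among the weakest: 48 of the 114 distinct peaks (42.1%) were in its weaker 50%, and their median signal was 80.6, against 67.4 for the whole list. Since neighbouring genes share peaks, these intervals, which take genes as independent, are too narrow.

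**Figure D1:**
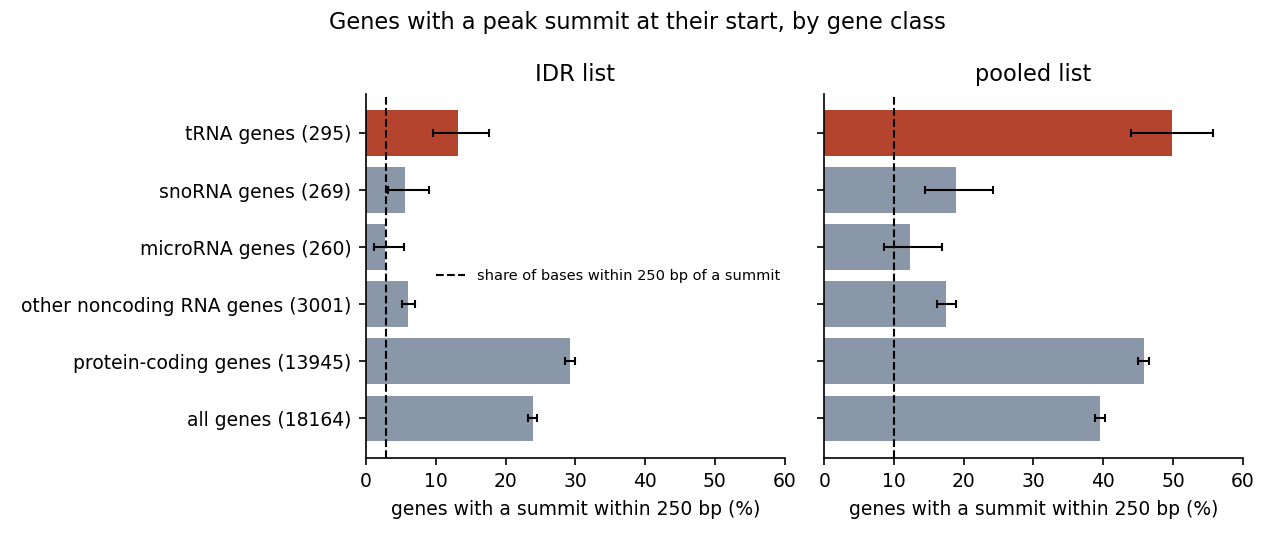
Percent of genes in each class with a summit within 250 bp of the gene start, in the IDR list (left) and the pooled list (right). Bars are shares, error bars exact 95% binomial intervals, and the dashed line is the share of bases within 250 bp of a summit. The tRNA genes stand at 13.2% in the IDR list and 49.8% in the pooled list.

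Pooled summits were densest at the tRNA gene starts. Among the 288 clear genes, pooled summits numbered 16.3 per 100 genes in the 100 bp just upstream of the start and 12.8 in the 100 bp just downstream, against 4.17 in the outermost 100 bp on each side, up to 2000 bp away. The same counts for protein-coding genes were 19.3 upstream and 9.87 downstream. In the IDR list the counts were small, with 3.47 per 100 genes just upstream (10 summits) and 1.74 just downstream (5 summits). The outermost 100 bp held 2.08 upstream and 0.35 downstream. Single stretches over 800 bp from the tRNA gene starts reached 2.43 in the IDR list and 7.29 in the pooled list. Of the 147 pooled summits, 1 per gene, 79 lay upstream of the start, 30 inside the gene and 38 downstream of it, with a median of -15 bp. At the 39 genes with an IDR summit it lay upstream at 26, within 100 bp at 10 of these, inside at 5 and downstream at 8, with a median of -73 bp. These are counts of genes, and the 39 genes shared 26 distinct IDR peaks. A summit between divergent genes lies upstream of both and is counted for each, and 7 divergent pairs shared an IDR peak. The part of this sharing in the upstream counts was not tested. In replicate 2 the median was 2.5 bp and in replicate 4 it was -30 bp, both well within the spread over genes (quartiles of -103 to 94.25 bp in replicate 2 and -86 to 59 bp in replicate 4). Of the clear genes with no other tRNA gene start within 1000 bp, 29 had a pooled summit. It lay upstream at 13, inside at 9 and downstream at 7, with a median of 17 bp. The medians at such genes were 23 bp in replicate 2 and -27.5 bp in replicate 4. Only 6 such genes had an IDR summit, upstream at 4.

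**Figure D2:**
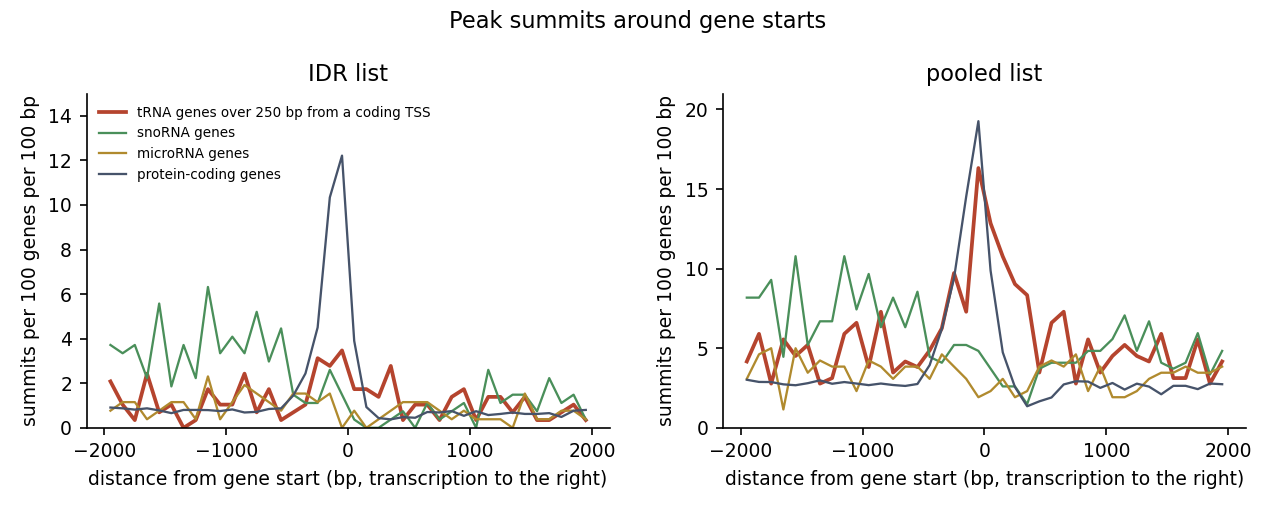
Summits per 100 genes in bins of 100 bp around gene starts, with transcription to the right, for tRNA genes over 250 bp from a protein-coding TSS and for 3 other classes, in the IDR list (left) and the pooled list (right). The tRNA line peaks at the start in the pooled list, at 16.3 per 100 genes.

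Both replicates showed the summits. In replicate 2, 140 tRNA genes (47.5%) had a summit, against 40% of all genes, and in replicate 4, 145 (49.2%) had one, against 39.2% of all genes. A summit in both replicates was present at 106 tRNA genes and in at least 1 at 179. The same counts over all genes were not made, so these 2 numbers cannot be read against genes in general. At the 106, the summits of the replicates were a median of 56 bp apart, a distance limited by both lying within 250 bp of the same start. Of the 39 genes with an IDR summit, 36 had a summit in both replicates, a median of 20 bp apart. The IDR list was selected on these same 2 replicates, so this count was largely set in advance and is no separate support. For the other 3, the replicate without one had its nearest summit 253 to 360 bp from the gene start. The labels call the replicates biological, and they are separate biosamples of the same line.

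**Figure D3:**
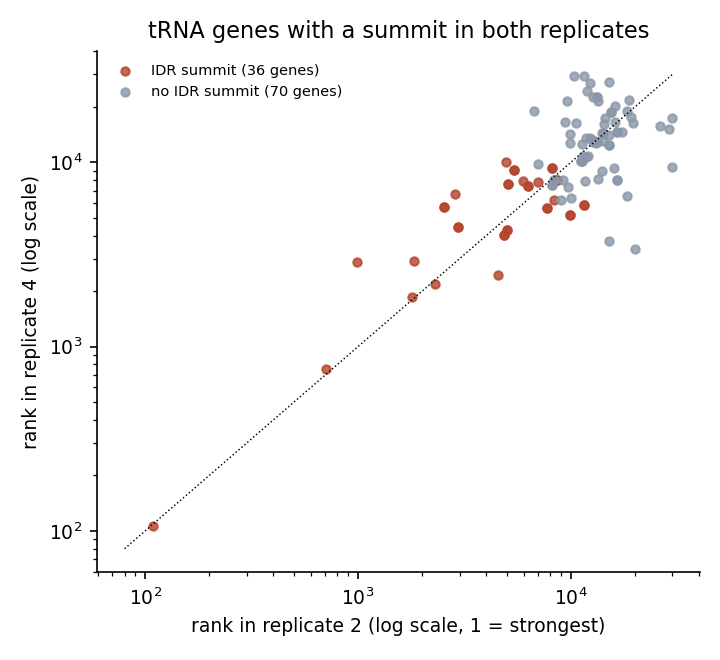
Rank of the strongest summit within 250 bp of each of the 106 tRNA genes with a summit in both replicates, replicate 2 on the x axis and replicate 4 on the y axis, both log scales with 1 as the strongest peak. Red points are the 36 genes with an IDR summit, grey points the other 70, and the dotted line marks equal ranks.

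The 39 genes shared 26 distinct IDR peaks, 13 of which served 2 tRNA genes each, and the 147 genes shared 114 pooled peaks, 33 of which served 2. The 26 IDR peaks had a median rank of 4987 of 7915 and a median signal of 204, against 241 for the whole list. Only 2 ranked among the strongest 791, and 16 were in the weaker 50% of the list. The summit was within 250 bp of a protein-coding TSS for 4 of the 26 peaks and for 4 of the 114 pooled peaks. A tRNA gene start was the nearest start of any gene for 23 of the 26 and for 111 of the 114. These peaks were picked for a summit within 250 bp of a tRNA gene start, so these counts largely follow from that choice.

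The strongest peak at a tRNA gene was that of tRNA:Tyr-GTA-1-8, a tyrosine tRNA gene with an intron of its own that lies in an intron of another gene. Its signal was 875 in replicate 2 (rank 109) and 742 in replicate 4 (rank 106), and 1622 in the IDR list (rank 108). The summit was 207 bp upstream of the tRNA gene and 237 bp from the TSS of the protein-coding gene CG8036, so the tRNA gene start is nearer by only a small margin. Binding at either start cannot be told apart at this distance.

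The next was tRNA:Gln-TTG-2-1, a lone glutamine tRNA gene on X. Its peak had a signal of 375 in replicate 2 (rank 704) and 304 in replicate 4 (rank 756), and rank 732 in the IDR list. The summit was 229 bp upstream, and the nearest protein-coding TSS, of CG14269, was 8055 bp from it. Here the 2 replicates placed the peak close together in rank.

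tRNA:Glu-TTC-1-5, a glutamate tRNA gene on 2R, had a signal of 314 in replicate 2 (rank 989) and 139 in replicate 4 (rank 2862), and IDR rank 1486. Its summit lay 224 bp downstream of the gene start and 155 bp from the start of snoRNA:185, which is nearer. The peak was stronger in replicate 2 by rank. tRNA:His-GTG-1-3, the gene set apart with an IDR summit, started 250 bp from the TSS of CG8490. Its peak ranked 1802 in replicate 2, 1865 in replicate 4 and 1762 in the IDR list, with the summit 130 bp from the tRNA gene start and 120 bp from the TSS.

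tRNA:Leu-TAA-2-1, a lone leucine tRNA gene on 3R, had rank 2310 in replicate 2, 2195 in replicate 4 and 2086 in the IDR list, with the summit 210 bp upstream. tRNA:Thr-AGT-1-4, a lone threonine tRNA gene in an intron on 3R, had ranks 1824, 2903 and 2149 in those lists, with the summit 103 bp upstream. tRNA:Trp-CCA-2-2, a tryptophan tRNA gene on 2R, ranked 4572 in replicate 2, 2459 in replicate 4 and 3232 in the IDR list, and its summit lay 68 bp upstream and 219 bp from the TSS of CG30122. All 3 had a peak in each replicate, and the tryptophan gene alone among them ranked clearly higher in replicate 4.

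Initiator tRNA, which starts every protein with methionine, had an IDR summit at 4 of its 6 genes, through 2 peaks that each lay between a pair of genes. tRNA:iMet-CAT-1-4 and tRNA:iMet-CAT-1-5 point away from each other in an intron on 3L and share a peak of rank 2533 in replicate 2, 5693 in replicate 4 and 3238 in the IDR list. Its summit was 221 bp upstream of tRNA:iMet-CAT-1-4 and 110 bp upstream of tRNA:iMet-CAT-1-5. tRNA:iMet-CAT-1-1 and tRNA:iMet-CAT-1-2 on 2R also point away from each other, and their shared peak ranked 11548 in replicate 2, 5842 in replicate 4 and 7841 in the IDR list, near the end of it. The elongator methionine genes had an IDR summit at 1 of 6.

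tRNA:Pro-TGG-1-2 and tRNA:Ala-AGC-2-3, whose 3′ ends face each other on 3R, shared a peak of IDR rank 3407, with rank 2936 in replicate 2 and 4468 in replicate 4. Its summit lay beyond the 3′ end of both, 121 bp downstream of the proline gene start and 134 bp downstream of the alanine gene start. tRNA:Ser-TGA-2-1, a serine tRNA gene on 2R, had IDR rank 3802, with the summit 87 bp upstream and ranks of 2856 in replicate 2 and 6763 in replicate 4. tRNA:Asp-GTC-1-4 and tRNA:Asp-GTC-1-5 on 2L, divergent genes of identical sequence, shared a peak of IDR rank 4175, with ranks of 4831 in replicate 2 and 4039 in replicate 4. Its summit lay inside tRNA:Asp-GTC-1-5, 57 bp from its start. tRNA:Arg-CCT-1-2 had IDR rank 4655 and rank 6312 in replicate 2, and in replicate 4 a summit of rank 3736 lay 253 bp from its start, just past the limit, and 92 bp from the IDR summit. tRNA:Phe-GAA-1-4 and tRNA:Phe-GAA-1-5, again divergent, shared a peak of IDR rank 4784 between them.

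At the limit of 250 bp, tRNA:Lys-CTT-1-2 was the last gene inside, with an IDR summit 232 bp from its start (rank 7710), and tRNA:Gln-CTG-2-3 the first outside, at 259 bp (rank 7741). Over all 295 tRNA genes the nearest IDR summit was a median of 3159 bp away.

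The tRNA genes were next read by cluster size. A cluster was counted as tRNA genes whose neighbouring starts are at most 5000 bp apart, which gave 146 clusters, 77 of them a single gene. Of the 77 lone genes, 4 (5.19%) had an IDR summit and 20 (26.0%) a pooled one. In clusters of 2 to 4 genes the numbers were 22 (15.7%) and 79 (56.4%) of 140, in clusters of 5 to 9 genes 8 (14.3%) and 35 (62.5%) of 56, and in the 2 clusters of 11 genes 5 (22.7%) and 13 (59.1%) of 22. A gene with a neighbour also has that neighbour's peak within reach, which was not corrected for. By the same reading, 118 of 188 genes with another tRNA start within 1000 bp had a pooled summit, against 29 of 107 without. No test of this difference was run.

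The place of the summit was also read by orientation. Among 90 neighbouring pairs with starts up to 500 bp apart, 19 were divergent, 18 convergent and 53 on the same strand. An IDR summit lay between the starts of 8 divergent pairs (42.1%), 3 convergent pairs (16.7%) and 4 same-strand pairs (7.55%). In the pooled list the counts were 12 (63.2%), 12 (66.7%) and 27 (50.9%), without such an order. The median distance between starts was 193 bp in divergent pairs, 334.5 bp in convergent pairs and 304 bp in same-strand pairs, and its part in these counts was not tested.

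**Figure D4:**
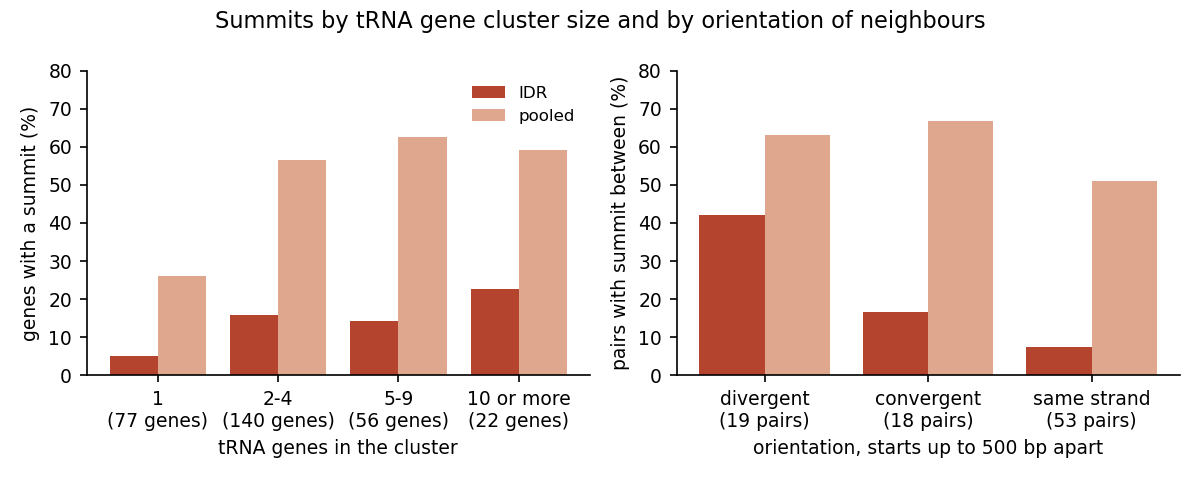
Left, percent of tRNA genes with a summit by the number of tRNA genes in their cluster; right, percent of neighbouring tRNA gene pairs with a summit between their starts, by orientation. Dark bars are the IDR list and light bars the pooled list. Lone genes have the lowest shares, 5.19% and 26.0%, and divergent pairs the highest IDR share, 42.1%.

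The cluster of 11 genes on 3R that holds tRNA:Pro-TGG-1-2 and tRNA:Ala-AGC-2-3 had 1 IDR peak at 2 of its genes and pooled summits at 7. The cluster of 11 genes on 2R, near EcR, the gene of the ecdysone receptor, had IDR peaks of rank 6742 and 7710 at 3 genes and pooled summits at 6. A cluster of 8 genes on 2R with initiator methionine and glutamate tRNA genes had 3 IDR peaks at 5 genes and pooled summits at all 8. The largest clusters without an IDR summit had 7 genes. The one on 2R, with isoleucine and leucine tRNA genes, had pooled summits at 7 of 7, the strongest at rank 12755, and the one on X, with arginine and serine tRNA genes, at 2 of 7.

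On arm 2R, 24 of 100 tRNA genes, 24%, had an IDR summit, against 7.69% (15 of 195) on the other arms together, where the shares ran from 7.32% on 2L to 8.16% on 3L. These were 15 peaks in 12 of 44 clusters on 2R and 11 peaks in 11 of 102 clusters elsewhere. Among all genes the share was 24.4% on 2R and 23.7% on the other arms. Pooled summits were at 62% of tRNA genes on 2R, 53.7% on 2L, 45.6% on 3R, 42.9% on 3L and 23.1% on X. Among all genes the pooled shares were 39.8% on 2R, 36.3% on 2L, 39.2% on 3R, 38.9% on 3L and 44.6% on X. On X the tRNA genes thus stood below all genes in the pooled list, and on the other arms above them. The difference between arms was not tested.

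Every amino acid was represented in the pooled list. IDR summits were at 4 of 6 initiator methionine, 3 of 8 phenylalanine, 3 of 10 asparagine, 2 of 8 tryptophan and 3 of 14 aspartate tRNA genes. None of 12 isoleucine genes had one, which allows a share of up to 25%, and none of 7 cysteine genes, which allows up to 42.9%. Both limits take genes as separate trials. These genes lie in 7 and 4 clusters, and many are identical copies, so the limits are too low. Isoleucine genes had pooled summits at 8 of 12 all the same, while cysteine genes had them at 2 of 7. Of the 16 genes with an intron, 1 had an IDR summit and 8 a pooled one. The 5 pseudogenes had no IDR summit and 1 pooled summit.

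**Figure D5:**
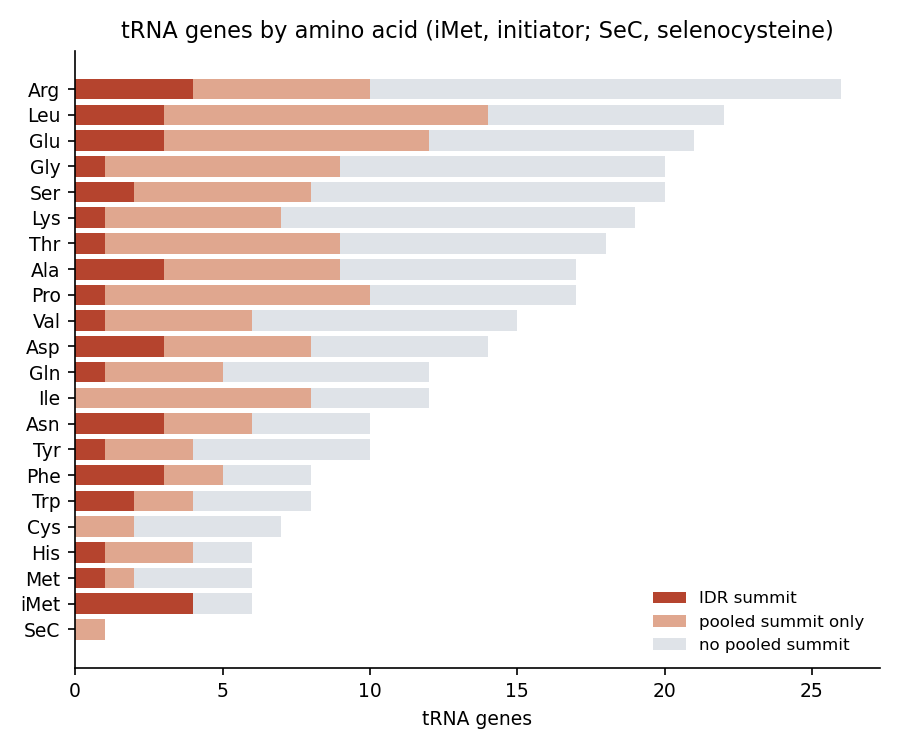
Number of tRNA genes for each amino acid, split into those with an IDR summit, those with a pooled summit only and those without a pooled summit. All 4 initiator methionine genes with a pooled summit also have an IDR summit, and none of the 12 isoleucine genes has one.

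The genes were also read by place in the genome. IDR summits were at 22 of 157 intergenic tRNA genes (14.0%), 16 of 130 in an intron of another gene (12.3%) and 1 of 8 in an exon. By distance to the nearest protein-coding TSS, they were at 6 of 26 genes over 250 and up to 500 bp away (23.1%), 8 of 47 up to 1000 bp (17.0%), 11 of 102 up to 5000 bp (10.8%) and 13 of 113 beyond that (11.5%). Pooled summits were at 17 (65.4%), 25 (53.2%), 47 (46.1%) and 55 (48.7%) of these. Both shares were higher in the bands from 250 to 1000 bp than in those beyond, and the difference was not tested. The 7 genes set apart, nearer still, had an IDR summit at 1 and a pooled summit at 3.

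Most tRNA genes cannot be told from their copies by sequence. The 295 genes had 100 distinct sequences, 238 of them (80.7%) had at least 1 identical copy, and the largest identical set had 13 members. Of the 32-base stretches in tRNA genes 14.5% occurred once in the genome, against 86.8% within 250 bp of the start on either side. At genes with an IDR summit the window value was 86.0%, and at those with no pooled summit it was 85.9%. Inside the genes the values were further apart. They were 8.74% with an IDR summit, 10.7% with a pooled summit and 18.3% with no pooled summit, a difference that was not tested. How the authors treated reads that match several places is not given in the sources used here, and its effect on the counts was not tested.

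The box letters were looked for anywhere on the transcribed strand of each gene and, at summits, on both strands. A match outside the place of the box thus counts in these shares. An example is the GGTTCNA match that opens tRNA:Gln-TTG-2-1, printed above without capitals. GGTTCNA was in 81.7% of all tRNA genes and TNGNNNAG in 88.5%, and the narrower GGTTCGA and TGGCNNAG were in 49.5% and 23.4%. GGTTCGA was in 46.2% of the genes with an IDR summit and in 48.0% of those with no pooled summit, which are close. Windows reaching 100 bp either way from the 26 IDR summits at tRNA genes held GGTTCGA in 15.4% of cases, against 1.48% of all IDR windows. At the 114 pooled summits of tRNA genes the share was 31.6%, against 1.49% of all pooled windows. A window at a tRNA gene can hold the gene itself, so this is a description of place.

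Motifs of other promoters were also looked for. The core GTCCGC, known for the human homologue HINFP, was in 0 of 26 windows, which allows up to 11.5%, against 2.86% of all IDR windows. TATCGATA, the core of the DNA replication-related element bound by DREF, and GGTCACAC, the core bound by M1BP, were also in 0 of 26, against 6.19% and 5.02% of all IDR windows. CGATA, the core bound by the insulator protein BEAF-32, was in 23.1%, against 33.5%; it overlaps TATCGATA. At a list share this low, 0 of 26 is no sign of a difference. Within 250 bp of the summit GTCCGC and TATCGATA were each in 2 of 26 windows (7.69%), against 9.50% and 9.55% of all IDR windows. None of these differences was tested.

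Genes for the machinery that makes tRNA were read in the same way, but at any TSS of the gene. Of 34 symbols on the list, 32 matched a protein-coding gene, and 16 of these (50%) had an IDR summit within 250 bp, against 31.7% of protein-coding genes. The strongest were at the TFIIIB subunits Brf (rank 274; 257 in replicate 2 and 305 in replicate 4) and Bdp1 (rank 697; 820 in replicate 2 and 592 in replicate 4). Next came Polr2H (rank 818), a subunit shared by all 3 nuclear RNA polymerases, and RNaseZ (rank 1478), which cuts the 3′ end of tRNA precursors. Each of these 4 ranked above all but 2 or fewer of the IDR peaks at tRNA genes themselves. Pop2, counted in the list at rank 3240, is in flies a deadenylase and no part of RNase P. Of the subunits particular to RNA polymerase III, Polr3K (rank 3658), Polr3F (rank 5833) and Polr3C (rank 7101) had an IDR summit. The 50% is thus a share of the whole list, shared subunits and general factors included.

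The 16 without an IDR summit included Polr3A, Polr3B, Polr3D, Polr3E and Polr3G, subunits particular to RNA polymerase III, with Polr1C, Polr2K and Polr2L of its shared subunits. Also among them were Trf, the TBP-related factor that serves in fly TFIIIB, Maf1, the repressor of the polymerase, the tRNA methyltransferases Mt2 and Nsun2, Rpp30 of RNase P, and Pbp45 and Pbp95 of the complex that acts at small nuclear RNA promoters. Polr3A and Polr3B had a summit in replicate 4 alone, at ranks 5603 and 6374, and Pbp45 had none in either replicate.

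Other genes of the same polymerase were also read at their gene starts, where all genes stood at 23.9% in the IDR list and 39.5% in the pooled list. snRNA:U6:96Ac, a U6 spliceosomal RNA gene, had an IDR summit 136 bp upstream of its start at rank 2341, with rank 1816 in replicate 2 and 3243 in replicate 4. RNaseMRP:RNA had an IDR summit 201 bp downstream of its start at rank 7177. None of the 96 annotated 5S ribosomal RNA genes had a summit in the IDR or the pooled list. These genes are a tandem array of near-identical copies, so they are not separate trials and no upper limit is given. The 2 genes of 7SL RNA and RNaseP:RNA had no summit in either list. Of the 4 U6 genes, snRNA:U6atac included, 1 had an IDR summit and 2 a pooled one. The 2 genes of 7SK RNA had no IDR summit, and 1 of them had a pooled one, at rank 22369.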

How the data were processed

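The members and lists were chosen with earlier results of these data known. Per the deposited provenance notes, the authors made each replicate list and the pooled list from read alignments in dm6 and 1 control alignment, and the IDR list from the other 3. Aligner and peak caller were not given in the sources used here. Per peak, the authors' deposited signal is a score on an unstated scale. The deposited −log10 q values were not used. Peak starts, ends and summit offsets are the other deposited values, positions with no normalization. The depth is unknown. Genes came from Ensembl 115 for BDGP6.54, with transposons left out, and sequence from the RefSeq copy of the assembly. A gene had a peak when the strongest summit lay within 250 bp of its start. Scripts used Python 3.11.15, numpy 2.4.6, pandas 2.3.3 and scipy 1.17.1, and were tested on simulated peaks. No significance test was run, since there is 1 group. Named were the 15 clear genes with the strongest IDR peaks, those set apart, the genes at the limit, the largest clusters with and without a peak, and machinery and other polymerase III genes as listed. Other genes named, among them the second initiator pair and the third cluster, were chosen after their values were seen, as were the wider box letters. A member of the machinery list is not reported here by name.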

Additional observations from a re-analysis of the deposited data

How the results depend on the processing

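Counts are given for all tRNA genes, for those clear of protein-coding TSSs and for distinct IDR peaks (39, 38 and 26 as reported). They moved by over 1.5 times with a summit within 100 bp (15, 15 and 13), within 1000 bp (76, 75 and 44) and in the strongest 50% of the IDR peaks (12, 11 and 10). All genes stood at 13%, 33.8% and 12.6% under these. Setting genes apart within 1000 bp of a protein-coding TSS left 24 of 215 clear genes with an IDR summit (11.2%, against 13.2% of 288 as reported). Pooled summits within 100 bp were at 86 of 295 tRNA genes (147 as reported), and at 24.5% of all genes (39.5% as reported). An IDR list needs both replicates, so with 1 left out the 7915 strongest peaks of the other were used in its place. The counts then ranged from 30 to 39, from 29 to 38 and from 22 to 27, the lower values without replicate 4. All genes stood at 22.8% without replicate 2 and at 24.2% without replicate 4. With stretches of 50 bases, 22.8% of those in tRNA genes occurred once. At 50 bp to each side of the summit GGTTCGA was in 3.85% and CGATA in 7.69% of IDR windows at tRNA genes, and at 250 bp GGTTCGA was in 57.7%. TNGNNNAG, added after seeing the data, was in 84.6% at 100 bp, against 15.4% for TGGCNNAG, and in 67.3% of all IDR windows. In all, 30 alternatives stayed within 1.5 times or the counting interval, among them those without a replicate, with 500 bp, the gene body, peak overlap, clusters counted once and pseudogenes left out. The cause of each move was not tested, apart from wider distances, fewer genes and fewer peaks by construction. Fixed list lengths and unknown depth limit what a missing summit shows.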
